A study of Bos taurus with 40 samples.

Results

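The longissimus dorsi, the long muscle of the back that is sold as sirloin, was compared with the liver, the abdominal fat and the pituitary gland of the same Korean cattle. Of the 40 libraries, 10 came from this muscle. They were chosen by the tissue in the sample labels, and each was matched by the ear tag of its animal to the 3 other libraries of that animal, which gave 30 libraries to compare with. The animals were 5 cows and 5 bulls (Female(Cow) and Male(Bull) in the labels), all older than 22 months when slaughtered, and no treatment or engineered allele separated them. Within a sex the animals are numbered from 1 to 5. The muscle pieces were intact, so that a library held the RNA of muscle fibres together with that of vessels, nerve, connective tissue, blood and any fat cells between the fibres, and fewer cells of a type cannot be told apart from less RNA per cell. Levels are given as CPM, the counts per 1000000 reads on genes after scaling the libraries to each other with TMM factors.

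Skeletal muscle contracts by sliding thin filaments, built of actin, tropomyosin and troponin, past thick filaments of myosin. Both are anchored in sarcomeres, between Z-discs. A nerve impulse opens the ryanodine receptor in the sarcoplasmic reticulum, calcium binds troponin, and calcium ATPases then pump it back. Slow fibres carry the myosin heavy chain MYH7 and burn fuel with oxygen, whereas fast fibres carry MYH2 (type IIa) or MYH1 (type IIx) and rely more on glycolysis and on phosphocreatine.

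The muscle libraries held 5173092 to 14757624 reads on genes, with a median of 9774209, and 10665 to 11665 genes had a read. Of the 13570 genes in the files, 13148 had a read in at least 1 of the 40 libraries and were tested, and 12421 had one in muscle. Log2 levels of muscle libraries correlated with each other at Pearson's r of 0.910 to 0.985 over 45 pairs, across genes. With other tissues r reached at most 0.845, in fat. The number of genes that together held 50% of the reads was 48 in cow 4 and 80 to 188 in the 9 other muscle libraries. Some libraries call for care, and values without them are given below where such fits were made. The muscle of cow 4 stood apart, after scaling, in the number of its genes far above the other muscle libraries. Liver of bull 3 had no read on DDX3Y, USP9Y or ZFY, which are genes of the Y chromosome, and fat of bull 5 had 28 in all, while the muscle of each bull had 331 to 1536 such reads and the muscle of each cow 0. All 30 libraries of other tissues held small amounts of muscle transcripts, most of all the liver of bull 2 and the fat of cow 5.

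The label of the tissue was checked first with ACTA1, CKM and MYH1. ACTA1, the actin of skeletal muscle, ran from 40375 to 101841 CPM (median 66168) in muscle. Its highest values elsewhere were 70, 51.5 and 23.2 CPM in liver, fat and pituitary. CKM, the creatine kinase of muscle that regenerates ATP, ran from 10000.2 to 20539 CPM (median 14972) in muscle and reached 14.7, 14.8 and 5.41 CPM in those tissues. MYH1 spanned 369 to 32268 CPM (median 5763) in muscle, the widest range of the 3, against maxima of 8.48, 17 and 7.83 CPM. For each of these genes all 10 muscle libraries lay above all 30 others, with log2 fold changes over the closest tissue of 12.79 ± 0.65 (SE) against fat, adjusted p = 4.19e-18 for ACTA1, 12.66 ± 0.68 (SE) against fat, adjusted p = 1.74e-17 for CKM and 11.84 ± 0.73 (SE) against fat, adjusted p = 8.34e-16 for MYH1. These and all later tissue comparisons used edgeR's quasi-likelihood test with the animal as a block and Benjamini-Hochberg adjustment over all genes tested.

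**Figure D1:**
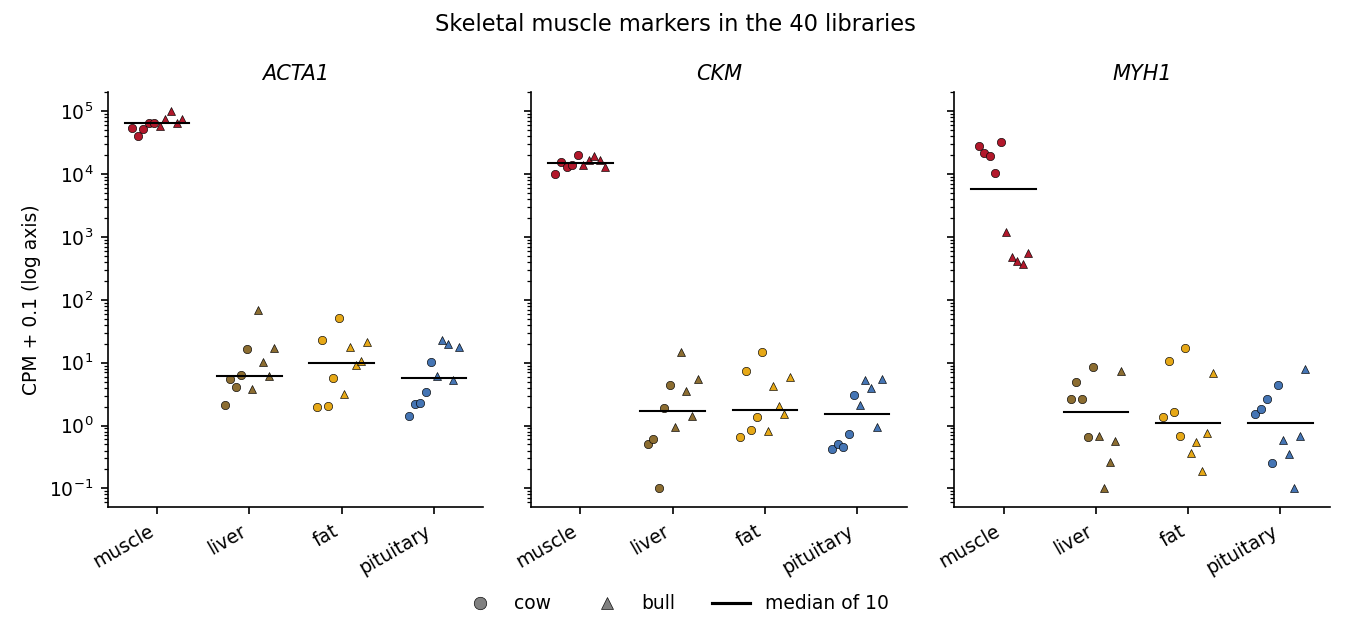
CPM + 0.1 on a log axis of ACTA1, CKM and MYH1 in each of the 40 libraries, by tissue. Circles are cows, triangles are bulls, and the bar is the median of 10. The 10 muscle libraries lie above the 30 others for each gene, and for MYH1 the cows' muscle (10310.1 CPM and above) lies above that of the bulls (1216 CPM and below).

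Muscle differed from liver in 62.7% of the genes, from fat in 60.6% and from pituitary in 65.1% at an adjusted p below 0.05. A stricter rule asked for a difference of the same sign from each of the 3 tissues. By it 1715 genes (13%) were higher in muscle and 1212 (9.22%) were lower. Among the former, 524 genes (3.99%) were at least 4-fold above each other tissue and are called muscle-enriched here. Among the latter, 187 (1.42%) were at least 4-fold below each and are called muscle-depleted. The muscle-enriched genes took 44.9% to 62.2% of the reads in a muscle library. In the other tissues they took at most 1.09% (liver), 2.86% (fat) and 2.08% (pituitary). When all libraries of 1 animal at a time were left out, 495 to 537 genes were enriched.

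How far the enriched genes stood above the rest varied. The median log2 fold change over the closest tissue was 3.66, or 3.65 with the 42 genes that had no read in some tissue set to the bound that 3 reads over its 10 libraries allow. Of the 524 genes, 232 were at least 16-fold and 52 at least 1024-fold above the closest tissue. The closest tissue was fat for 211, pituitary for 193 and liver for 120. In 427 all 10 muscle libraries exceeded all 30 others, which was so for 4.65% of all genes tested. At the 4-fold limit, PPP3R1, a regulatory subunit of calcineurin, lay just inside (log2 fold change 2.01 against liver) and REEP1, a protein that shapes the endoplasmic reticulum, just outside (1.999 against pituitary).

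The 10 genes with the most reads in muscle were led by ACTA1. Shares of reads depend on transcript length as well as on the number of transcripts, so their order is one of reads. ACTA1 took 3.42% to 7.44% of the reads of a library and at most 0.0070% in another tissue. TPM2, the beta chain of tropomyosin, took 1.49% to 3.78%. FLNC, the filamin of the Z-disc, took 0.309% to 9.40%, the upper end in cow 4, where it was the most counted gene; in the 9 other muscle libraries ACTA1 was. MYH2, MYBPC1 (slow myosin binding protein C), FHL1 (a LIM protein of the sarcomere), ALDOA (aldolase A of glycolysis), MB (myoglobin, which stores oxygen), CKM and TNNT3 (fast troponin T) completed the list, at mean shares between 1.05% and 2.25%. Of these, ALDOA was the exception to the 4-fold rule, because fat held 2389 to 9777 CPM (median 3965) against 9489 to 34306 CPM (median 16198) in muscle, a log2 fold change of 1.97 ± 0.25 (SE) with adjusted p = 2.64e-08.

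The largest ratios over the closest tissue belonged to contractile genes. TNNI2, the inhibitory subunit of fast troponin, ran from 219.8 to 1477 CPM (median 784) in muscle. It had no read in the 10 liver and the 10 pituitary libraries and 1 read in fat, so it was at least 25146-fold higher than in liver and at least 45692-fold higher than in pituitary when 3 reads over the 10 libraries are taken as the floor. MYLPF, the phosphorylatable fast myosin light chain, ran from 4486 to 10042 CPM (median 7010.2) in muscle with medians of 0.673 CPM in liver, 0.556 in fat and 0.595 in pituitary. Its log2 fold change was 12.86 ± 0.61 (SE) against fat, adjusted p = 6.74e-19. MYOT, which crosslinks actin at the Z-disc, stood at 12.81 ± 0.65 (SE) against fat, adjusted p = 3.60e-18, and TNNC2, the calcium-binding subunit of fast troponin, at 12.54 ± 0.67 (SE) against fat, adjusted p = 1.49e-17. The 15 genes with the largest ratios also held PPP1R3A, which ties a phosphatase to glycogen (12.39 ± 0.47 (SE) against liver, adjusted p = 5.01e-22), and ITGB1BP3, a kinase of nicotinamide riboside (12.33 ± 0.41 (SE) against fat, adjusted p = 6.60e-23). TRIM54, a ring finger protein of the sarcomere, MYL2, ACTA1, CKM, MYBPC1, MYH2, TNNC1, CSRP3 and MYL1 made up the remainder.

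Genes of the muscle programme were then counted in fixed lists. Across all genes tested the median log2 fold change of muscle over the mean of the 3 other tissues was -0.14, and 63.6% of genes differed from that mean, 30.8% of them upwards and 32.8% downwards, as shares of all genes. Against each tissue separately, 13% of genes were higher than in each. Of 16 genes of the thick filament 15 were higher in muscle than in each other tissue and 14 were enriched, with a list median of 11.75. MYH2 reached 13032 to 66658 CPM (median 26118) in muscle, MYH7 1964 to 29546 CPM (median 10791) and MYBPC1 12783 to 25127 CPM (median 16922). MYH7 was closest to pituitary, where its 10 libraries held 5.61 to 23.2 CPM (median 8.54), a log2 fold change of 9.81 ± 0.60 (SE) with adjusted p = 2.49e-16. The developmental myosins were counted much less often. MYH3, the embryonic heavy chain, had 4.58 to 67.7 CPM (median 11) in muscle and was higher than in each tissue but by less than 4-fold over fat (0.91 ± 0.35 (SE)), and MYH8, the perinatal chain, had 1.32 to 86.1 CPM (median 7.76). MYBPC3, the binding protein C of the heart, was the member that did not pass, at a median of 0.258 CPM. Only uniquely mapped reads were counted, and the myosin heavy chains are close in sequence, so their levels can be underestimates.

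The thin filament list held 17 tested genes, of which 15 were higher and all 15 were enriched, at a list median of 11.20. TPM2 ran from 25639 to 51678 CPM (median 31792) in muscle, with a fat median of 221 CPM and a log2 fold change of 6.82 ± 0.41 (SE) over fat (adjusted p = 4.95e-16). TNNT3 ran from 5514 to 20418 CPM (median 14696). NRAP, an anchoring protein of young myofibrils, had a median of 6137 CPM. The members that did not pass were TNNT2 and TNNI3, the cardiac troponins T and I, at muscle medians of 3.67 and 1.18 CPM. ACTC1, the cardiac actin, was enriched (11.25 ± 0.74 (SE) against pituitary, adjusted p = 1.77e-15) but spread from 5.39 to 2252 CPM between animals.

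Of 27 genes of the Z-disc and the costamere, the complex that fastens sarcomeres to the fibre membrane, 26 were higher and 23 enriched (list median 8.64). DES, the intermediate filament desmin, had a median of 14344 CPM against 28.8 CPM in liver, 168 in fat and 17 in pituitary. FHL1 was also well counted in fat, which held 885 to 1967 CPM (median 1538) against 11907 to 22382 CPM (median 18069.5) in muscle (log2 fold change 3.62 ± 0.23 (SE), adjusted p = 1.91e-15). PDLIM7, SGCB (beta-sarcoglycan) and DYSF (dysferlin, which repairs membranes) were higher than in each tissue but under 4-fold over the closest one. DMD, the gene of dystrophin, did not pass: its median was 97.8 CPM in muscle and 88.9 CPM in liver (log2 fold change 0.24 ± 0.23 (SE), adjusted p = 0.366).

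For coupling of excitation to contraction, 19 of 22 genes were higher and 18 enriched (list median 8.42). ATP2A1, the fast calcium pump of the sarcoplasmic reticulum, had a muscle median of 12822 CPM against 3.93 CPM in liver, 5.67 in fat and 7.7 in pituitary. RYR1, the calcium release channel, had 7011 CPM and CASQ1, which binds calcium inside the reticulum, 5080.0 CPM. ATP2A2, the slow-fibre pump that other cells also use, had 4627 CPM against 273 CPM in liver, 60.7 in fat and 162 in pituitary. CACNG1, the gamma subunit of the calcium channel that senses the impulse, had a median of 151 CPM in muscle and a median of 0 in each other tissue. FXYD1, FKBP1A and PVALB did not pass. PVALB, the calcium buffer parvalbumin, had a median of 0.782 CPM in muscle and 29.6 CPM in fat.

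At the neuromuscular junction 9 of 12 genes were higher and 7 enriched (list median 3.65). The subunits of the acetylcholine receptor were all higher in muscle than in each other tissue: CHRNA1 had a median of 368 CPM against 0.121 CPM in liver, 15.2 in fat and 3.39 in pituitary, CHRNB1 133 CPM, the adult subunit CHRNE 40.3 CPM, CHRND 8.73 CPM and the fetal subunit CHRNG 2.92 CPM. MUSK, the kinase that clusters the receptor, had 17.5 CPM and RAPSN, its scaffold, 75.5 CPM. COLQ, the collagen tail of acetylcholinesterase, did not pass and had 2.53 CPM in muscle against 33.8 CPM in fat.

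**Figure D2:**
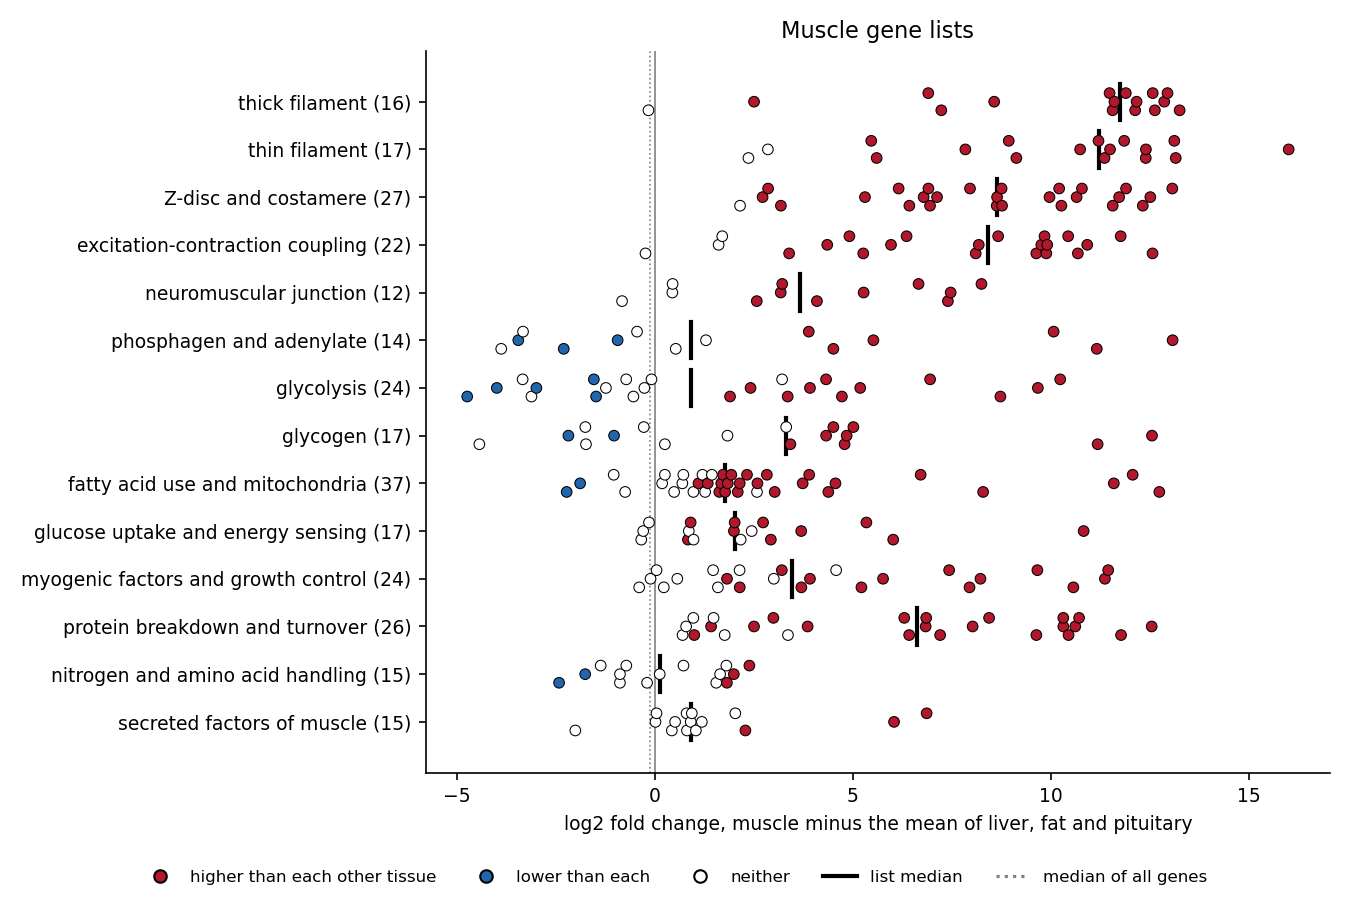
Log2 fold change of muscle over the mean of liver, fat and pituitary for each tested member of 14 gene lists, with the number tested in brackets. Red points were higher than each other tissue, blue points lower than each and white points neither, thick bars are list medians and the dotted line is the median of all genes (-0.14). Contractile lists lie far to the right, whereas the lists of phosphagen, glycolysis, glycogen and amino acid genes reach to both sides; the point above 15 is TNNI2, which had no read in 2 of the tissues, so that its place depends on the fit.

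In several energy pathways a muscle form of an enzyme was higher and another form lower than in each tissue. Not every counterpart was lower: PYGL, PYGB and LDHB were not. Over all genes tested 9.22% were lower than in each tissue. In the phosphagen and adenylate list 6 of 14 genes were higher, all of them enriched, and 3 were lower than in each tissue (list median 0.91). CKM and CKMT2, the creatine kinases of the muscle cytosol and mitochondria, had medians of 14972 and 2064 CPM. CKB, the brain form, ran from 2.32 to 8.41 CPM (median 4.05) in muscle against medians of 20.5 CPM in liver, 183 in fat and 20 in pituitary (-2.32 ± 0.35 (SE) against pituitary, adjusted p = 4.61e-07). AMPD1, the AMP deaminase of muscle, had 588 CPM in muscle against 0.139 CPM in liver, 0.319 in fat and 0.211 in pituitary, while AMPD2 had 16.9 CPM against 123 CPM in liver, 61.9 in fat and 101 in pituitary. The same division held for adenylosuccinate synthase, with ADSSL1 at 42.9 CPM in muscle against 1.66 CPM in liver, 1.9 in fat and 2 in pituitary, and ADSS at 13.8 CPM against 27.6 CPM in liver, 29 in fat and 27.4 in pituitary.

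In glycolysis 11 of 24 genes were higher, 7 of them enriched, and 5 were lower (list median 0.91). PFKM, the muscle phosphofructokinase, had 3633 CPM in muscle against 14.4 CPM in liver, 16.9 in fat and 90.1 in pituitary. Its liver form PFKL had 25.9 CPM against 51.2 CPM in liver, 164 in fat and 69.1 in pituitary. PGAM2, the muscle phosphoglycerate mutase, had 1158 CPM against 0.609 CPM in liver, 1.04 in fat and 1.27 in pituitary, and PGAM1 had 86.7 CPM against 153 CPM in liver, 390.5 in fat and 198 in pituitary. ENO3 (beta-enolase), PKM (pyruvate kinase) and TPI1 were enriched, whereas ALDOC, PKLR and FBP1, forms known from brain or liver, were lower than in each tissue, with PKLR at 0.395 CPM in muscle against 156 CPM in liver. FBP2, the muscle fructose bisphosphatase, was enriched at 547 CPM. LDHA, which makes lactate, had 527 CPM against 31.2 CPM in liver, 24.3 in fat and 1.84 in pituitary. LDHB, another form of that enzyme, did not pass and was highest in fat (1666 CPM against 313 CPM in muscle). GAPDH, an enzyme of glycolysis that every cell uses, was listed at a median of 0 in all 4 tissues.

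Of the 17 glycogen genes 8 were higher, all enriched, and 2 lower (list median 3.32). PYGM, the muscle glycogen phosphorylase, had 8006 CPM in muscle against 1.1 CPM in liver, 8.37 in fat and 2.99 in pituitary, a log2 fold change of 10.01 ± 0.49 (SE) against fat, adjusted p = 1.26e-18. The liver form PYGL had 48.5 CPM in muscle and 1211 CPM in liver, and the brain form PYGB 9.21 CPM. Phosphorylase kinase divided likewise, with PHKG1, the catalytic subunit of muscle, enriched at 98.8 CPM, and PHKG2 and PHKA2, subunits known from liver, lower at 6.08 and 2.31 CPM. PGM1 and GYG1 (glycogenin) were enriched too.

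The list of fatty acid use and mitochondria had 23 of 37 genes higher, 11 of them enriched, and 2 lower, at a list median of 1.77. MB ran from 10361 to 25876 CPM (median 15016) in muscle and had medians of 1.17 CPM in liver, 4.57 in fat and 1.13 in pituitary (11.77 ± 0.59 (SE) against fat, adjusted p = 2.23e-18). PDK4, the kinase that turns off pyruvate dehydrogenase, had 3682 CPM against 88.4 CPM in liver, 844 in fat and 97.7 in pituitary. Muscle forms of mitochondrial proteins were enriched, among them SLC25A4 (the ADP/ATP carrier), COX6A2, COX7A1, COX8B, UCP3 and CPT1B. COX6A2 had 150.4 CPM with medians of 0 CPM in liver, 0.0851 in fat and 0 in pituitary, and its counterpart COX6A1 was lower in muscle (17 CPM) than in each other tissue (67.6 CPM in liver, 186 in fat and 37.8 in pituitary). UCP2 was lower as well. ATP5B and ATP5A1 of the ATP synthase were higher in muscle than in each tissue but under 4-fold, and SDHA, HADHA, HADHB, ACADM and CPT2 did not pass. CD36 and LPL, which take up and release fatty acids, were highest in fat.

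For glucose uptake and energy sensing 10 of 17 genes were higher and 4 enriched (list median 2.01). SLC2A4, the insulin-responsive glucose transporter, had a median of 301 CPM against 2.27 CPM in liver, 15 in fat and 5.5 in pituitary (3.91 ± 0.37 (SE) against fat, adjusted p = 3.68e-11). PRKAG3, the AMPK subunit of fast muscle, had 102 CPM against 0.0862 CPM in liver, 7.64 in fat and 10.1 in pituitary. PPARGC1A, a coactivator for mitochondrial genes, did not pass (0.98 ± 0.48 (SE) against liver, adjusted p = 0.0769).

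Of 24 myogenic factors and growth regulators 14 were higher and 11 enriched (list median 3.45). MYF6, the myogenic factor of mature fibres, had 193 to 1652 CPM (median 515) in muscle and medians of 0.0794 CPM in liver, 0.651 in fat and 0.0794 in pituitary. MYOG, MYOD1 and MYF5 had muscle medians of 86, 27.9 and 9.06 CPM, and their medians elsewhere did not exceed 0.227 CPM. MEF2C, MEF2D and SRF, partners of these factors, were enriched at 428, 509.9 and 338 CPM. MSTN, the growth inhibitor myostatin, had 1.71 to 23.9 CPM (median 6.87) in muscle, and its medians elsewhere were 0 CPM in liver, 0.0615 in fat and 0.0642 in pituitary. IGF2 did not pass, being highest in liver (4183 CPM against 662 CPM).

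Of 26 genes of protein breakdown and turnover 20 were higher and 17 enriched (list median 6.63). KBTBD10 and KBTBD5, the kelch proteins also called KLHL41 and KLHL40, had muscle medians of 4745 and 977 CPM. ASB5, a member of a family of ubiquitin ligase adaptors, had 2533 CPM. TRIM63 (MuRF1) and FBXO32 (atrogin-1), ligases known from muscle wasting, had 223 to 2245 CPM (median 596) and 14.3 to 1247 CPM (median 306). CAPN3, the calpain of muscle, had 1228 CPM against 0.869 CPM in liver, 1.49 in fat and 2.82 in pituitary, whereas CAPN1, CAPN2 and their inhibitor CAST, which act in meat tenderization, did not pass.

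Of 15 genes of nitrogen and amino acid handling 3 were higher, 0 enriched and 2 lower (list median 0.12). GLUL, glutamine synthetase, had 1599 CPM in muscle against 619 CPM in liver, 857 in fat and 340.5 in pituitary. GOT2 and SLC38A2 were the others that were higher, and ASNS (asparagine synthetase) and PRODH (proline dehydrogenase) were lower. Of 15 secreted factors credited to muscle 3 were higher and 2 enriched (list median 0.90). FNDC5, the precursor of irisin, had 4 to 24 CPM (median 12.2), MUSTN1 had a median of 1347 CPM, and APLN was higher by less than 4-fold. IL6, IL15 and BDNF had medians of 0.149, 1.49 and 0.644 CPM. SPARC was highest in fat (14513 CPM against 1974 CPM).

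Of the 187 muscle-depleted genes 59 had all 10 muscle libraries below all 30 others, which was so for 0.989% of all genes, and 51 had at least 10 CPM on average in each other tissue. KCNH3, a potassium channel, ran from 0 to 1.48 CPM (median 0.295) in muscle against medians of 12.9 CPM in liver, 14.4 in fat and 16 in pituitary (-5.09 ± 0.44 (SE) against liver, adjusted p = 2.83e-12). MAL2, which carries proteins through polarized cells, ran from 0.635 to 7.17 CPM (median 1.57) against 174 CPM in liver, 106 in fat and 64.5 in pituitary (-4.73 ± 0.38 (SE) against pituitary, adjusted p = 2.93e-13). FGFR2, a fibroblast growth factor receptor, ran from 0 to 0.967 CPM (median 0.482) against 76.5 CPM in liver, 12.7 in fat and 29.4 in pituitary (-4.64 ± 0.34 (SE) against fat, adjusted p = 1.07e-13). IGFBP2, which binds insulin-like growth factors, ran from 0 to 2.59 CPM (median 0.676) in muscle. Its other libraries overlapped with muscle only through the liver of bull 2 at 0.358 CPM (-4.88 ± 0.71 (SE) against fat, adjusted p = 3.29e-07). SFXN2, a mitochondrial carrier, EPHX1, an epoxide hydrolase, GGH, LNP1, SDF2L1 and RARRES2 (the adipokine chemerin) followed, at log2 fold changes from the nearest tissue of -3.30, -3.10, -3.10, -3.15, -3.09 and -2.96. For SDF2L1 the lowest fat library (3.45 CPM) lay below the highest muscle library (4.29 CPM).

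**Figure D3:**
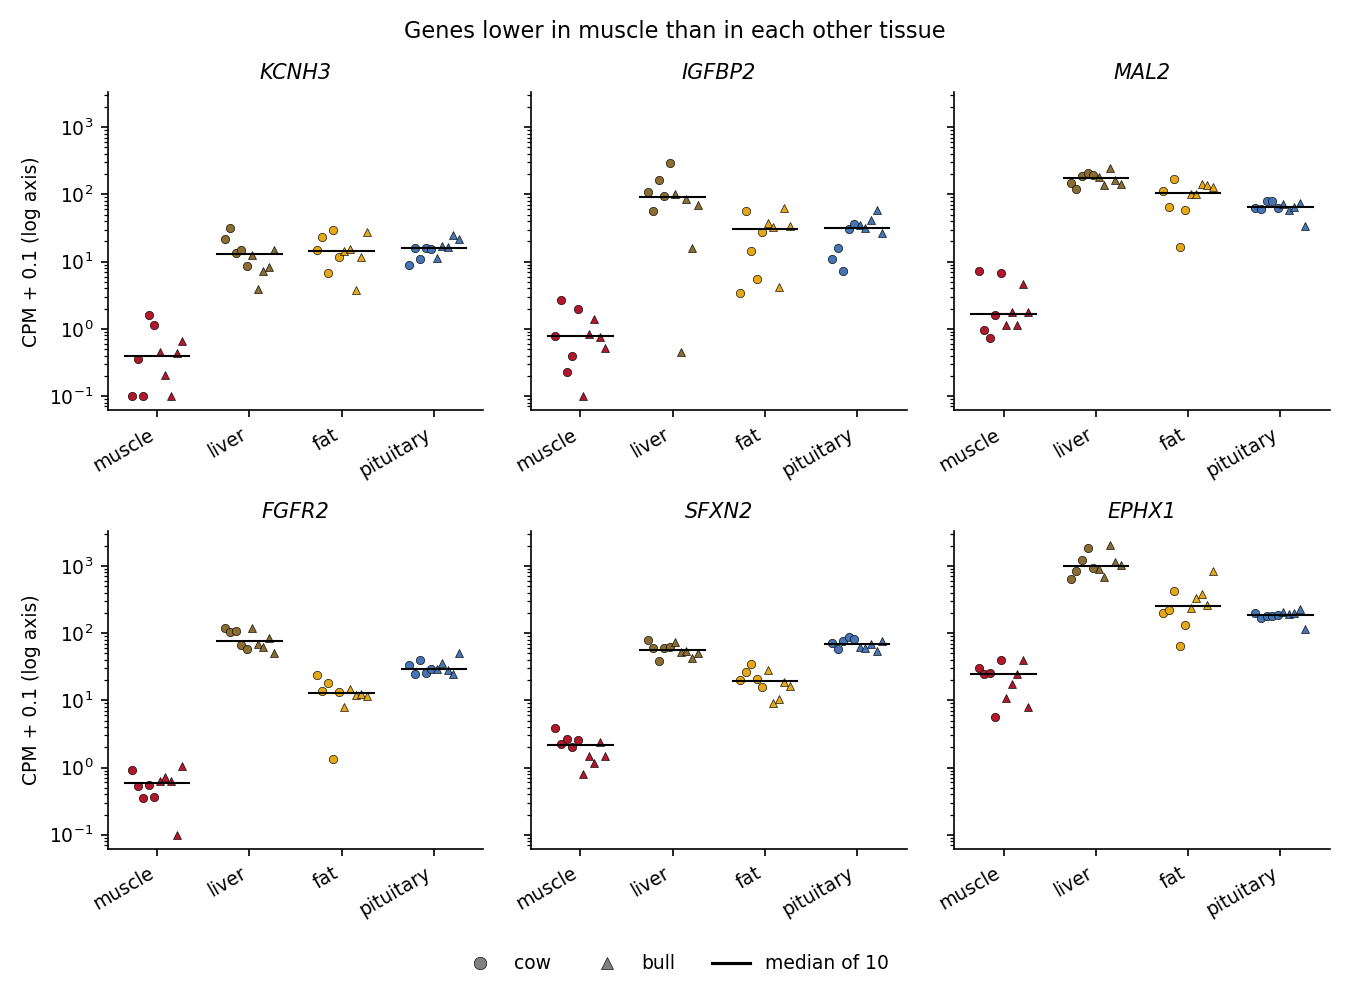
CPM + 0.1 on a log axis of 6 muscle-depleted genes in each of the 40 libraries, with circles for cows, triangles for bulls and a bar at the median of 10. The muscle libraries lie lowest for every gene shown, and the single low liver point of IGFBP2 is bull 2 (0.358 CPM).

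Scaling moved how many genes were called in each direction. Without TMM factors (0.518 to 0.912 for muscle libraries, 0.963 to 1.71 for those of fat and pituitary) 825 genes were higher and 2388 lower, so that 25.7% of the calls were higher in place of 58.6%. The median log2 fold change of all genes then moved by -0.74 against fat, -0.87 against pituitary and -0.06 against liver. Of the 524 enriched genes 388 were enriched by that scaling too. Of the 370 list genes 187 were higher in muscle than in each tissue, and 168 of these kept the call without factors; MYH3, PDLIM7, ATP5A1, GLUL, APLN, RGS5, MBP and CALCR were among those that lost it. All 17 list genes that were lower kept their call. With filterByExpr, which drops low genes, the share was 48.7%.

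Cows and bulls were also analysed apart. In the 20 libraries of cows 487 genes (3.7%) were enriched and in those of bulls 537 (4.08%). The 444 shared genes were 91.2% of the cows' list and 82.7% of the bulls'. Of the depleted genes 149 (1.13%) were found in cows and 239 (1.82%) in bulls, and the 90 shared ones were 60.4% and 37.7% of the lists. RSPO3, an enhancer of Wnt signals, was enriched in all animals together (2.03 ± 0.67 (SE) against fat, adjusted p = 0.00957) but not in cows, where muscle lay below the closest tissue at a log2 fold change of -0.91 (adjusted p = 0.854). In the interaction of sex with muscle RSPO3 had adjusted p = 0.283 by edgeR's quasi-likelihood test.

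Markers of other cell types in the muscle samples were counted with the same rules. Of 8 adipocyte markers 0 were higher or lower than in each tissue, and their summed level ran from 49.0 to 988 CPM in muscle (lowest cow 3, highest cow 5) against 7941 to 29001 CPM in fat. All 8 had reads in muscle. Of 11 fibroblast and matrix markers and 9 endothelial markers 0 passed in either direction, with sums of 3931 to 12701 and 677 to 1113 CPM in muscle. Smooth muscle and pericyte markers had 2 of 9 higher in muscle, namely RGS5 (1.25 ± 0.33 (SE) against pituitary, adjusted p = 0.00127) and LMOD1 (2.09 ± 0.31 (SE) against fat, adjusted p = 4.16e-07), a regulator of actin filaments in smooth muscle. Of 10 leukocyte markers 1 was lower (LCP1) and 0 higher, with a sum of 415 to 1497 CPM. Of 7 nerve and Schwann cell markers 2 were higher, among them the myelin gene MBP (median 29.7 CPM). Of 5 satellite cell markers, which mark the stem cells of muscle, CDH15, MYF5 and CALCR were higher, at medians of 36.2, 9.06 and 2.35 CPM. The 6 red cell markers summed to at most 0.690 CPM, and HBB, HBA, HBM, CA1 and SLC4A1 were listed at a median of 0. HBB and HBA were nearly absent from the other tissues as well, at most 0.702 and 0.281 CPM, both in liver. Whether counting lost their reads was not tested, so these values cannot show how much blood a sample held. Hepatocyte markers summed to 17.5 to 188 CPM in muscle against at least 162561 CPM in liver, and 2 of 10 (TF and TTR) were lower than in each tissue. Pituitary markers summed to 112 to 542 CPM against at least 92448 CPM in pituitary, and 0 of 13 passed. Within that last list PITX1, a limb and pituitary factor, had 165 CPM in muscle and 141 CPM in pituitary.

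Between animals, genes of muscle differed widely. The 5 enriched genes with the largest spread of log2 levels were MYH1, ACTC1, RSPO3, ATF3 and TNFRSF12A. MYH1 ran from 369 to 32268 CPM. ACTC1 had 23.7, 46.9, 61.9, 2201 and 5.39 CPM in cows 1 to 5 and 636, 1805, 811, 525 and 2252 CPM in bulls 1 to 5. RSPO3 had 2.07, 1.12, 2.54, 201 and 10.8 CPM in the cows and 158, 164, 96.3, 127 and 123 CPM in the bulls. In both genes cow 4 was with the bulls and far from the other cows. ATF3, a stress-induced transcription factor, ran from 31.3 to 2947 CPM (median 298), with cow 4 at the top, and TNFRSF12A, a receptor induced in injured muscle, ran from 5.1 to 1086 CPM (median 156), with cow 4 at the top again.

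The muscle of cow 4 had the most genes far above the other muscle libraries, while its median r with them (0.955) was close to that of cow 1 (0.954). Of 7177 genes with a mean of at least 10 CPM in muscle, 315 had cow 4 far above the 9 other libraries (a gap of more than 0.466 of the range), among them 42 enriched genes. The next count was 145, for bull 3, and the lowest 12, for bull 4. These counts use scaled CPM, and cow 4 had the lowest TMM factor of the muscle libraries (0.518, against a median of 0.725). That factor raises all its values relative to the other libraries, and no count was made without factors. The genes given here were chosen after their values were seen. PTX3, a pentraxin of acute inflammation, had 741 CPM in cow 4 against 3.3 to 85.2 CPM in the other 9 libraries. KBTBD5 had 12942 CPM in cow 4 against 177 to 2867 CPM in the other 9 libraries, LMCD1, a LIM domain protein, 12795 CPM in cow 4 against 80 to 3317 CPM in the other 9 libraries, and RRAD, a small GTPase that restrains calcium channels, 4431 CPM in cow 4 against 99.4 to 1176 CPM in the other 9 libraries. CDKN1A, the cell cycle inhibitor p21, had 1068 CPM in cow 4 against 31.4 to 325 CPM in the other 9 libraries. FLNC had 181520 CPM in cow 4 against 3389.9 to 49484 CPM in the other 9 libraries. The tissue comparison depended little on this sample: without it 528 genes were enriched, 517 of them shared with the 524.

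The study asked which genes differ between the sexes in each tissue, and for muscle the answer depended on cow 4. By edgeR's likelihood ratio test, the study's own choice, 68 genes (0.517%) differed between the 5 bulls and 5 cows at an adjusted p below 0.05, 18 higher in bulls (0.137%) and 50 higher in cows (0.38%). By the quasi-likelihood test 7 did (0.0532%). Of the 524 enriched genes 9 passed (1.72%), and 1, MYH1, by the quasi-likelihood test. Without cow 4 the likelihood ratio test called 553 genes (4.21%), 205 higher in bulls (1.56%) and 348 higher in cows (2.65%), and 75 of the enriched genes (14.3%). Leaving out others moved the count as well: to 131 without cow 5, 47 without bull 1, 44 without bull 4, 39 without bull 2 or bull 5, 38 without cow 3, 33 without cow 2, 30 without cow 1 and 25 without bull 3.

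MYH1 was the clearest difference. It had 27790.1, 22031, 19796, 10310.1 and 32268 CPM in cows 1 to 5 and 1216, 488, 411, 369 and 563 CPM in bulls 1 to 5. Every cow was above every bull, as in 1.65% of all genes in which the sexes did not overlap in either direction, and cow 4 was the lowest cow, and the log2 fold change of bulls over cows was -5.20 ± 0.48 (SE), with adjusted p = 8.27e-24 by the likelihood ratio test and 4.64e-05 by the quasi-likelihood test of edgeR. MYH2 had 13032, 21484, 21714, 51028 and 19049 CPM in the cows and 40536, 66658, 27169, 25067 and 37528 CPM in the bulls, which overlapped (0.64 ± 0.40 (SE), adjusted p = 0.588). MYL2, the slow regulatory light chain, had 2701, 2752, 4476, 6475 and 3847 CPM in the cows and 5729, 13521, 19592, 22277 and 11625 CPM in the bulls. Cow 4 was above the lowest bull, and the log2 fold change was 1.86 ± 0.41 (SE) with adjusted p = 0.00345 (likelihood ratio) and 0.221 (quasi-likelihood) in edgeR. TNNC1, the slow and cardiac troponin C, had 1206, 2149, 3412, 6049 and 3420.3 CPM in the cows and 5378, 8970.5, 17832, 13939 and 9638 CPM in the bulls (1.81 ± 0.45 (SE), adjusted p = 0.0224 and 0.283 by the same edgeR tests).

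Slow and fast fibre genes were set side by side. All 14 slow fibre genes and 12 of 14 fast fibre genes were enriched in muscle, at list medians of 11.13 and 11.54. The fitted difference was higher in bulls for 13 of 14 slow genes, of which 2 passed the likelihood ratio test (MYL2 and TNNC1), and lower in bulls for 9 of 14 fast genes, of which MYH1 passed. Over all genes tested the fitted value was higher in bulls for 41.5% and higher in cows for 52.9%. MYH7 had 1964, 2871, 3048, 29546 and 6298 CPM in cows 1 to 5 and 6474, 15109, 22527, 20131 and 20645 CPM in bulls 1 to 5. Cow 4 was thus the highest of all 10 after scaling. Without scaling factors cow 4 had 15306 CPM, below bull 3 (16468 CPM) and bull 4 (15769 CPM). MYH7 did not pass (0.99 ± 0.64 (SE), adjusted p = 0.609 by edgeR's likelihood ratio test). Without cow 4, 9 of the 14 slow genes were higher in bulls by the likelihood ratio test, namely MYH7 (log2 fold change 2.30), TNNT1 (2.35), TNNC1 (2.16), MYL2 (2.10), TPM3 (1.99), CASQ2 (3.91), ATP2A2 (1.66), MYOZ2 (1.60) and CSRP3 (1.46), against 1.56% of all genes. Of the 524 enriched genes, which include the slow genes, 56 were then higher in bulls and 19 higher in cows. Of the fast genes MYH1 (-5.38) and PVALB were then lower and MYH2 (1.07) was higher in bulls. PVALB was not enriched in muscle. It had 0.264 to 0.829 CPM in bulls, levels near that of a few reads, and at most 6.05 CPM in cows. The lists were recounted without cow 4 only, a library singled out by its values, its high MYH7 among them. Leaving out such a library favours calls for these genes, so the recount is no independent test. The summed level of leukocyte markers had a median of 1023 CPM in cows and 612 CPM in bulls, that of fibroblast and matrix markers 7042 and 5191 CPM, and that of adipocyte markers 255 and 160 CPM. Fitted values were lower in bulls for 9 of 10, 10 of 11 and 8 of 8 of these markers, and without cow 4 CD14, ITGAM, FN1 and PDGFRA were called lower in bulls. Endothelial and smooth muscle markers were lower for 6 of 9 and 7 of 9. Other lists went the opposite way. Nerve and Schwann cell markers had medians of 219 CPM in cows and 311 CPM in bulls, with 4 of 7 higher in bulls. Of the satellite cell markers 4 of 5 were higher. Without cow 4 S100B and CALCR of these lists were called higher in bulls. The part of these cells in the differences was not tested.

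**Figure D4:**
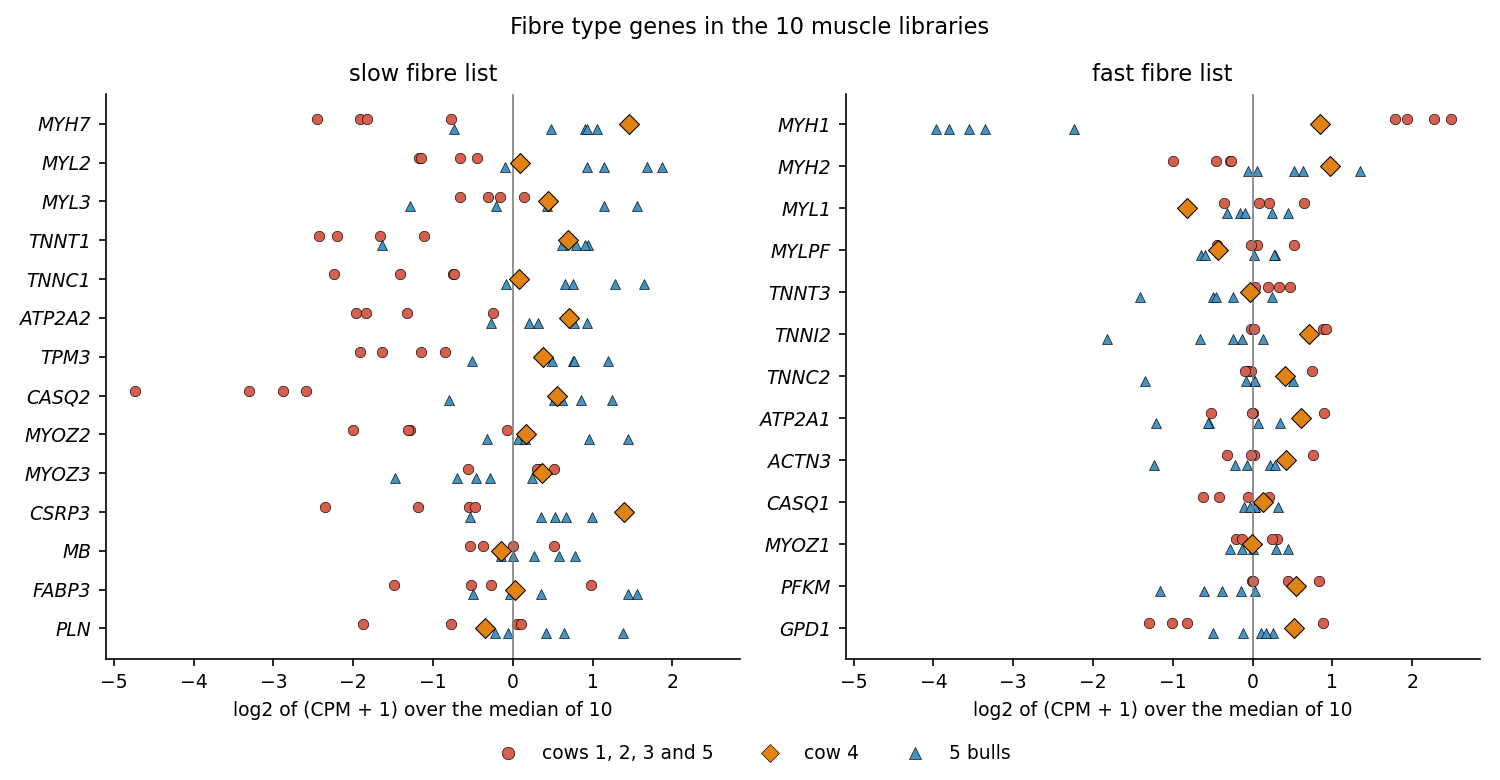
Log2 of the ratio of CPM + 1 to the median of the 10 muscle libraries, for the slow fibre genes (left) and the fast fibre genes with a median of at least 10 CPM (right). Cow 4 is the diamond; it lies among or above the bulls for MYH7 (29546 CPM), TNNT1, ATP2A2 and CASQ2, and MYH1 separates the bulls from all cows.

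The other enriched genes called between the sexes were MCHR1, PRKAG3, CYP19A1, HOXD11, NEPN and OPRD1. MCHR1, a receptor for melanin-concentrating hormone, had 9.93, 7.26, 18.5, 17.9 and 15.1 CPM in cows and 78.8, 34, 129.6, 92.4 and 29.7 CPM in bulls (2.43 ± 0.44 (SE), adjusted p = 6.56e-05 by the likelihood ratio and 0.0533 by the quasi-likelihood test of edgeR). PRKAG3 had 261, 285, 194, 129.7 and 117 CPM in cows and 87.4, 35.3, 80.4, 82.5 and 82.1 CPM in bulls (-1.42 ± 0.36 (SE), 0.0233 and 0.244). CYP19A1, the aromatase that makes estrogens, had 0.138, 0, 0.381, 0.296 and 0.92 CPM in cows and 4.86, 1.05, 1.32, 3.15 and 1.93 CPM in bulls (adjusted p = 0.0233 and 0.296 in edgeR), levels near that of a few reads. HOXD11, NEPN and OPRD1 were higher in cows, at cow means of 0.978, 2.18 and 4.07 CPM, and for HOXD11 and OPRD1 a single cow stood far above the rest. CD14, a leukocyte marker that was not enriched, had 22.2, 22.7, 18.7, 16.4 and 18.3 CPM in cows and 10.4, 6.09, 3.7, 11.9 and 4.97 CPM in bulls (-1.40 ± 0.35 (SE), adjusted p = 0.0233 and 0.244 in edgeR). Of the 37 genes of fatty acid use and mitochondria 30 had a higher fitted value in bulls, as 41.5% of all genes did, and 0 passed either test. With 1 animal left out at a time, MYH1, MCHR1 and MYL2 kept their call between the sexes in all 10 fits. PRKAG3 and OPRD1 lost it in 8 of 10, HOXD11 in 7, CYP19A1, NEPN and CD14 in 6 and TNNC1 in 5.

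Whether a sex difference in muscle departs from that in the other tissues was tested by an interaction, the difference of bulls and cows in muscle minus the mean of the same difference in liver, fat and pituitary. By the quasi-likelihood test 4 genes passed (0.0304%), 0 of them enriched, 895 genes (6.81%) had an unadjusted p below 0.05, and 14 passed by the likelihood ratio test. SH3KBP1, an adaptor of receptor endocytosis, had 251, 83.2, 216, 37.2 and 141 CPM in the muscle of cows and 27.4, 23, 39.1, 29.3 and 29.7 CPM in that of bulls (interaction -1.93 ± 0.32 (SE), adjusted p = 0.0137 in edgeR). HTRA1, a secreted protease, had 321, 284, 376, 101 and 265 CPM in cows and 178, 93.9, 91.5, 84 and 109 CPM in bulls (-1.70 ± 0.33 (SE), adjusted p = 0.045 in edgeR), and EXOC6, of the exocyst, 60.7, 21.1, 51, 28.2 and 27.6 CPM in cows and 74.5, 110.1, 76.4, 140.5 and 66.2 CPM in bulls (1.42 ± 0.27 (SE), adjusted p = 0.0446 in edgeR). GCGR, the glucagon receptor, was at most 4.41 CPM in muscle (-2.93 ± 0.55 (SE), adjusted p = 0.0446 in edgeR). Among enriched genes ZMYND17, MCHR1, MYH1 and FRZB were among those that came closest. For MYH1 the interaction was -3.0 with adjusted p = 0.234 in edgeR's quasi-likelihood test. Elsewhere MYH1 was read only as traces. In liver it had 2.58, 4.90, 2.56, 0.562 and 8.48 CPM in cows 1 to 5. Bulls 1 to 5 had 0.572, 0, 0.161, 0.468 and 7.36 CPM there. The interaction subtracts the sex difference of such traces, so for MYH1 it cannot decide whether the difference is particular to muscle. With 1 animal left out, 65 genes passed without cow 4 and 0 to 4 without any of the others, with RLE factors 1 gene passed, and without factors 0 did. Of the 10 fits without 1 animal, SH3KBP1 lost its call in 4, EXOC6 in 7 and GCGR and HTRA1 in 8. Without the liver of bull 3, 5 genes passed.

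The muscle transcripts found in liver, fat and pituitary were described through 23 muscle genes with at least 2000 CPM in muscle and at least 1024-fold enrichment. Relative to muscle, their levels had a median of 249 parts per 1000000 of the muscle level in liver (177 to 790 over the genes), 411 in fat (314 to 1727) and 372 in pituitary (211 to 1343). The 1024-fold rule itself keeps the levels elsewhere low. These ratios therefore describe the 23 genes chosen and not muscle transcripts at large, and MYH7 was not among them. Summed over the genes, a library held 20.8 to 273 CPM in liver, 36.8 to 343 CPM in fat and 36.0 to 176 CPM in pituitary, with no scaling factor, against at least 184766 CPM in muscle. Bull 2 was highest in liver and cow 5 in fat. The folds of the leading genes rest on these low values. Without those 2 libraries 528 genes were enriched, 518 of them shared with the 524.

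The make-up of these transcripts varied with the animal. MYH1 reads made up 68.1% of the MYH1 and MYH2 reads in the muscle of cow 1, and 65.3% (95% Wilson interval 51.3% to 77.1%) in its liver. In cow 4 the shares were 16.8% in muscle and 9.30% (3.68% to 21.6%) in liver, and in bull 2 they were 0.726% in muscle and 1.34% (0.575% to 3.11%) in pituitary. In 15 of the 30 libraries of other tissues, from 7 animals, the interval did not hold the share in the animal's own muscle. Bull 4 had 1.45% in muscle and 6.98% (3.24% to 14.4%) in liver, bull 1 had 2.91% and 16.7% (6.68% to 35.9%) in liver, cow 5 had 62.9% and 39.2% (35.2% to 43.3%) in fat, and cow 3 had 47.7% and 76.1% (62.1% to 86.1%) in pituitary. The gap was widest in bull 5: its muscle gave 1.48%, while its liver gave 44.3% (37.2% to 51.7%), its fat 42.2% (35.7% to 49.1%) and its pituitary 41.8% (36.2% to 47.6%), all in the range of cows 1, 2, 3 and 5, whose libraries of all tissues gave 39.2% to 76.1%. These intervals cover counting error only. On DDX3Y, USP9Y and ZFY the liver of bull 5 had 1090 reads, its pituitary 1744, its muscle 862 and its fat 28. The most in a library of a cow was 3, in the fat of cow 2. The source of the muscle transcripts in these libraries was not tested. MYH7 had 7.60 to 36.2 CPM in pituitary without scaling. After scaling its medians were 1.94 CPM in liver, 2.37 in fat and 8.54 in pituitary, a difference that was not tested.

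**Figure D5:**
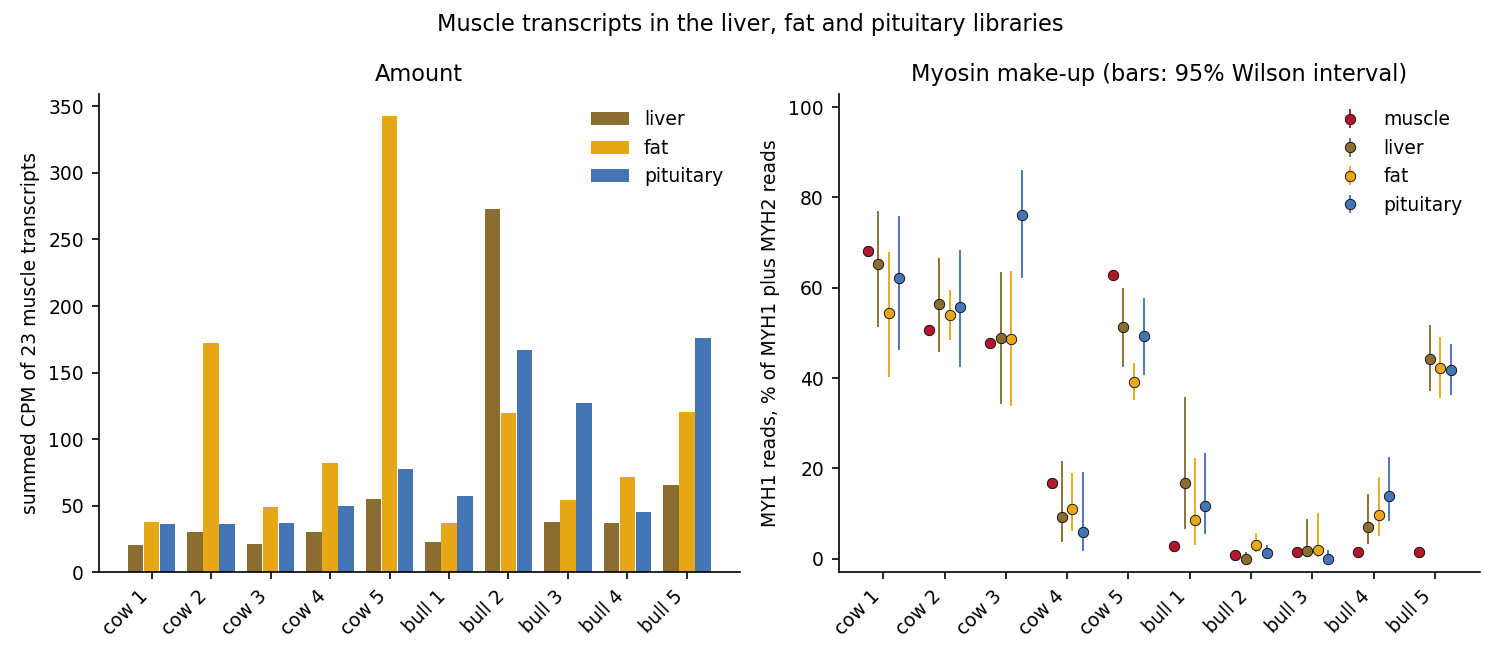
Left, summed CPM (without scaling factors) of 23 muscle transcripts in the liver, fat and pituitary library of each animal. Right, MYH1 reads as a percentage of MYH1 plus MYH2 reads in each library of each animal, with 95% Wilson intervals; the muscle point of bull 5 (1.48%) lies far below its liver, fat and pituitary points (44.3%, 42.2% and 41.8%).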

How the data were processed

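RNA from longissimus dorsi muscle, liver, abdominal fat and pituitary gland of 10 Korean cattle was sequenced as poly-A selected TruSeq libraries in paired-end mode. After trimming (Trimmomatic) and alignment (Bowtie2 within Tophat2, UCSC bosTau7), the authors deposited raw counts of uniquely mapped reads per gene from HTSeq, 1 table per library. Whether counting used strand is not given in the sources used here, so overlapping and antisense genes cannot be told apart, and close paralogs such as the myosins lose reads.

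Rows that summarize unassigned reads were left out. So was a row with no gene name, which held 0.448% to 2.69% of the reads in muscle and at most 0.488% elsewhere. Counts were fitted with edgeR 4.0.16 (R 4.3.3, limma 3.58.1), with TMM factors and no filter beyond 1 read, in 1 model of all 40 libraries with tissue and animal as terms. The blocks are the animals as labelled by ear tag. Deviations from the mean of each sex and tissue in muscle correlated with those of the same animal's liver, fat and pituitary. The medians were 0.126 (-0.137 to 0.558), 0.339 (-0.215 to 0.565) and 0.254 (-0.0234 to 0.569). Other animals of the same sex gave medians of -0.040, -0.058 and -0.112. Deviations from a shared mean push these towards the opposite sign, so they are no independent comparison. In liver the closest pair of libraries was cow 4 and bull 3 (r = 0.993), and the animal labels were not tested further. Sex within muscle followed the study's likelihood ratio test. Alternatives were DESeq2 1.42.0, limma-voom, RLE factors, no factors, filterByExpr, each sex alone, no animal block and leaving out animals or doubtful libraries. The main fits were run first on simulated counts in which few genes changed, equally in both directions. Such counts cannot show how the fits and the scaling behave where most genes differ between tissues, as they did here. Of 429 entries in 27 gene lists 370 matched a tested gene, 3 of them through a synonym in RefSeq.

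Genes were named by rule: the 3 markers, the 10 with most reads, the 15 largest enrichments and 10 largest depletions from 10 CPM on, the 4 highest members of each list, members lower than in each tissue, all cell type markers, and the smallest p-values for sex and interaction; others are named as exceptions within their list and were chosen after their values were seen. The members and lists were chosen with earlier results of these data known. Each animal gave 1 sample per tissue. A count of 3 reads amounted to 0.203 to 0.580 CPM in muscle libraries before scaling. Promoter motifs were not analysed here, and some genes that the rule names are not reported here.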

Additional observations from a re-analysis of the deposited data

Results flagged for a closer look

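Single muscle libraries stood far from the other 9 in 8 of the genes examined: the gap to the nearest library exceeded 0.466 of the range. Over 54 groups tested 10 were marked in this way. The limit marks about 1 group in 20 where values are normally distributed, which was not shown for these CPM. By the same measure 13.0% of the 7177 genes with a mean of at least 10 CPM in muscle had such a library. That share is the background for the marked genes, so the marks alone do not set them apart. Cow 4 was the high library for FLNC (181520 CPM), ITGB1BP3 (1704 CPM), TRIM54 (4765 CPM) and TNFRSF12A (1086 CPM). Cow 5 was high for ALDOA (34306 CPM), cow 2 for RARRES2 (51.1 CPM) and OPRD1 (11.0 CPM), and cow 3 for HOXD11 (2.79 CPM). Among the other tissues the summed muscle transcripts were far above the rest in the liver of bull 2 (273 CPM) and in the fat of cow 5 (343 CPM).

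The sex difference in muscle departed from the mean of the other tissues, by the interaction in edgeR's quasi-likelihood test, for SH3KBP1 (log2 difference -1.93, adjusted p = 0.0137), GCGR (-2.93, 0.0446), EXOC6 (1.42, 0.0446) and HTRA1 (-1.70, 0.0450). Leaving out 1 animal at a time gave adjusted p-values up to 0.135 for SH3KBP1, 0.229 for GCGR, 0.318 for EXOC6 and 0.321 for HTRA1.

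The row without a gene name, which entered no comparison, held a median of 1.25% of the reads in muscle, whereas no library of another tissue exceeded 0.488%. In muscle it ran from 0.448% in cow 1 to 2.69% in bull 5. It held 2.11% in cow 4, 0.527% in cow 2, 0.592% in cow 3 and 0.675% in cow 5, against 0.889%, 1.60%, 2.02%, 2.60% and 2.69% in bulls 1 to 5. Which genes it holds was not tested.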

How the results depend on the processing

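The counts of muscle-enriched genes stayed within 1.5 times of 524 under all alternatives except other fold limits, which gave 1047 at 2-fold and 347 at 8-fold (641 and 43 in place of 187 for depleted genes). Cows alone gave 1041 higher and 792 lower genes in place of 1715 and 1212. Total reads without factors gave 825 higher, 2388 lower and 435 depleted; the cause was not tested beyond the shift of all fold changes given above. Without the animal block (pairing) 1705 genes were higher, 1126 lower, 539 enriched and 194 depleted, the interaction called 3, and 184 of 187 higher and 17 of 17 lower list genes kept their call (GPI, CYCS and CALCR did not). Leaving out 1 animal at a time gave 1502 to 1714 higher, 1105 to 1478 lower, 495 to 537 enriched and 175 to 215 depleted genes. Without the fat of bull 5 alone, 1737 genes were higher and 1381 lower, and 506 of the 524 enriched genes stayed enriched. The interaction was not refitted without that library alone. For the leading genes (markers, most reads, largest folds, widest spread, nearest to the 4-fold limit) 870 of 874 alternative fold changes kept direction and call, RSPO3 in cows alone reversed (-0.91), and 3 lost the call (RSPO3 by limma-voom and without factors, TNFRSF12A in cows alone). Of the 187 higher list genes 168 to 187 kept the call over all alternatives, the fewest without factors, and of the 17 lower ones 12 to 17.

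Sex results were less stable. With 1 animal left out, the count of 68 was 47, 39, 25, 44 and 39 (bulls 1 to 5), 30, 33, 38, 553 and 131 (cows 1 to 5), and it was 7 by the quasi-likelihood test. For enriched genes, 9 became 4 to 75, 1 by the quasi-likelihood test and 5 with filterByExpr. The interaction's 4 became 0 to 65, 1 with RLE factors, 0 without factors and 14 by the likelihood ratio test. The cause was not tested. Among fold changes of named genes between the sexes 89 of 146 alternatives kept the call, and 29 of 64 for the interaction, all with the same direction. Depth limits genes near 3 reads per library.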
